A study of Mus musculus with 20 samples.

Results

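The 8 genes described here encode the start of the blood clotting cascade and its brakes: F3, F7, F10, F5, F13a1, Tfpi, Thbd and Procr. They are 8 of the 52783 mouse genes in the deposited table and were found by their symbols, with the identifiers ENSMUSG00000028128, ENSMUSG00000031443, ENSMUSG00000031444, ENSMUSG00000026579, ENSMUSG00000039109, ENSMUSG00000027082, ENSMUSG00000074743 and ENSMUSG00000027611 in that order. F7 was among the genes that the study picked from the comparison of CD45+ cells between the tumours, and F3 and F10 stand in its gene groups from that comparison. The set was therefore chosen by values of CD45+ cells, and the tumour difference in CD45+ cells is given as a description without a test. The study's choice of F7, F3 and F10 did not use the CD45− libraries, but the set of 8 was put together with earlier results of both gates known, so that the tests in CD45− cells are not free of that knowledge.

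Both tumours were grown by injecting 1000000 cells of a mouse mammary carcinoma line into the mammary fat pad of adult female BALB/cJ mice. 66cl4 tumours spread to the lungs and 67NR tumours do not, and the lines belong to the 4T1 family of immunocompetent models. Tumours were dissociated and sorted on CD45, a surface protein of leukocytes, into CD45+ (immune) and CD45− (non-immune) cells, and mRNA was sequenced. There were 5 animals per tumour (separate mice by the numbers in the titles) and 1 library per gate and animal, which makes 20 libraries in 4 groups of 5, named here by tumour, gate and animal number. No group was treated, no group came from a mouse without a tumour, and each tumour type stands for 1 cell line, so that the line and its capacity to spread cannot be told apart. The CD45− gate can hold tumour cells, fibroblasts and vessel cells together.

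Clotting starts when tissue factor, the membrane protein encoded by F3, meets factor VII from plasma. The complex activates factor X, which with factor V turns prothrombin into thrombin, and factor XIII then cross-links the fibrin that thrombin forms. Tissue factor pathway inhibitor (Tfpi) blocks the first step, while thrombomodulin (Thbd) and the endothelial protein C receptor (Procr) turn thrombin towards the anticoagulant protein C pathway. The liver is the main source of plasma factors VII, X and V, and macrophages are known to make several of the factors locally. Tumour cells often carry tissue factor.

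The promoters of F3 and of the 3 factors whose levels in CD45+ cells separated the tumours most widely (F7, F10 and F5) are shown so that these genes can be compared at the sequence level. Each window holds the 250 bases before the RefSeq transcript start in GRCm38.p6, all on the plus strand, at chr3:121723287-121723536 for F3, chr8:13025784-13026033 for F7, chr8:13037058-13037307 for F10 and chr1:164151585-164151834 for F5. F7 and F10 lie on the same strand of chromosome 8 with starts 11274 bases apart. Capitals mark matches, on either strand, to the GC box GGGCGG, the EGR motif GCGNGGGCG, the AP-1 motif TGANTCA, the PU.1 core GAGGAA or the TATA box TATAAA. The letters of the GC box and the EGR motif can overlap.
F3: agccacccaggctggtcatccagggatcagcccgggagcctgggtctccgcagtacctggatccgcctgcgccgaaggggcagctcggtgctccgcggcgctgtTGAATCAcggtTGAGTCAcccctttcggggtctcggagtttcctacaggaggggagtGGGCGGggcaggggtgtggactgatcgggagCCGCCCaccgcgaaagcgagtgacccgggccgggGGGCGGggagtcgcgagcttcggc
F7: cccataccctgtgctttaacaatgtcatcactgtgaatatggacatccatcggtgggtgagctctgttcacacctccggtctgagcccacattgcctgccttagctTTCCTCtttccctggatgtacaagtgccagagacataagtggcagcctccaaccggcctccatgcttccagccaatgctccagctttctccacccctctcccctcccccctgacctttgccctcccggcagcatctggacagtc
F10: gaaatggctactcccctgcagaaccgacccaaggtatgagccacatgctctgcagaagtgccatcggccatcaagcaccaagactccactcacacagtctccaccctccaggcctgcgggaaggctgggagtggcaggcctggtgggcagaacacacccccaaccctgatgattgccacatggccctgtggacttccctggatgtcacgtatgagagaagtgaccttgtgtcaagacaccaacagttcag
F5: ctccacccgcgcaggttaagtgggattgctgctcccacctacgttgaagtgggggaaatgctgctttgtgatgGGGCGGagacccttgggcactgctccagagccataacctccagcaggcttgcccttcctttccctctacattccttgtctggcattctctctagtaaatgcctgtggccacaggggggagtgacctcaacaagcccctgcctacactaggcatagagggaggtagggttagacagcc
The F3 window held 3 GC boxes and 2 AP-1 motifs. The F7 window held 1 PU.1 core, the F5 window 1 GC box, and the F10 window none of the 5 motifs. Of 32851 promoter windows of this length in the reference, 32.7% held a GC box, 4.70% the EGR motif, 6.75% the AP-1 motif, 23.3% the PU.1 core and 12.4% the TATA box. Among the members not printed, Procr held 1 AP-1 motif, F13a1 held 1 PU.1 core and Tfpi held 2 GC boxes, 1 PU.1 core and 1 TATA box, the last 2 genes over 2 windows each. A match is a description of the letters only.

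Library totals ranged from 12960000 to 28080314 estimated counts, and levels are given as normalised counts (counts divided by the DESeq2 size factors of the 20 libraries). A count of 0 allows up to 3 counts in a library, which covers counting error only. The sample titles set the groups, although in animals 5 and 6 of 66cl4 the cell type field names the other gate. Their libraries titled CD45+ held Ptprc, which encodes CD45, like the other CD45+ libraries, and results without these animals are given with the alternative settings. The summed level of 4 leukocyte genes was 39751 to 90521 in CD45+ and 75.7 to 1437 in CD45− libraries. In CD45− cells 66cl4 animal 5 had the highest such sum of its group (576), with 1969.8 for the macrophage genes against 151 to 905 in the other 4 animals. Keratins 8 and 18 marked 66cl4 CD45− cells (Krt8 mean 5353 normalised counts) and were low in 67NR CD45− cells (61.6), and Epcam was near 12.1 and 32.8.

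**Figure D1:**
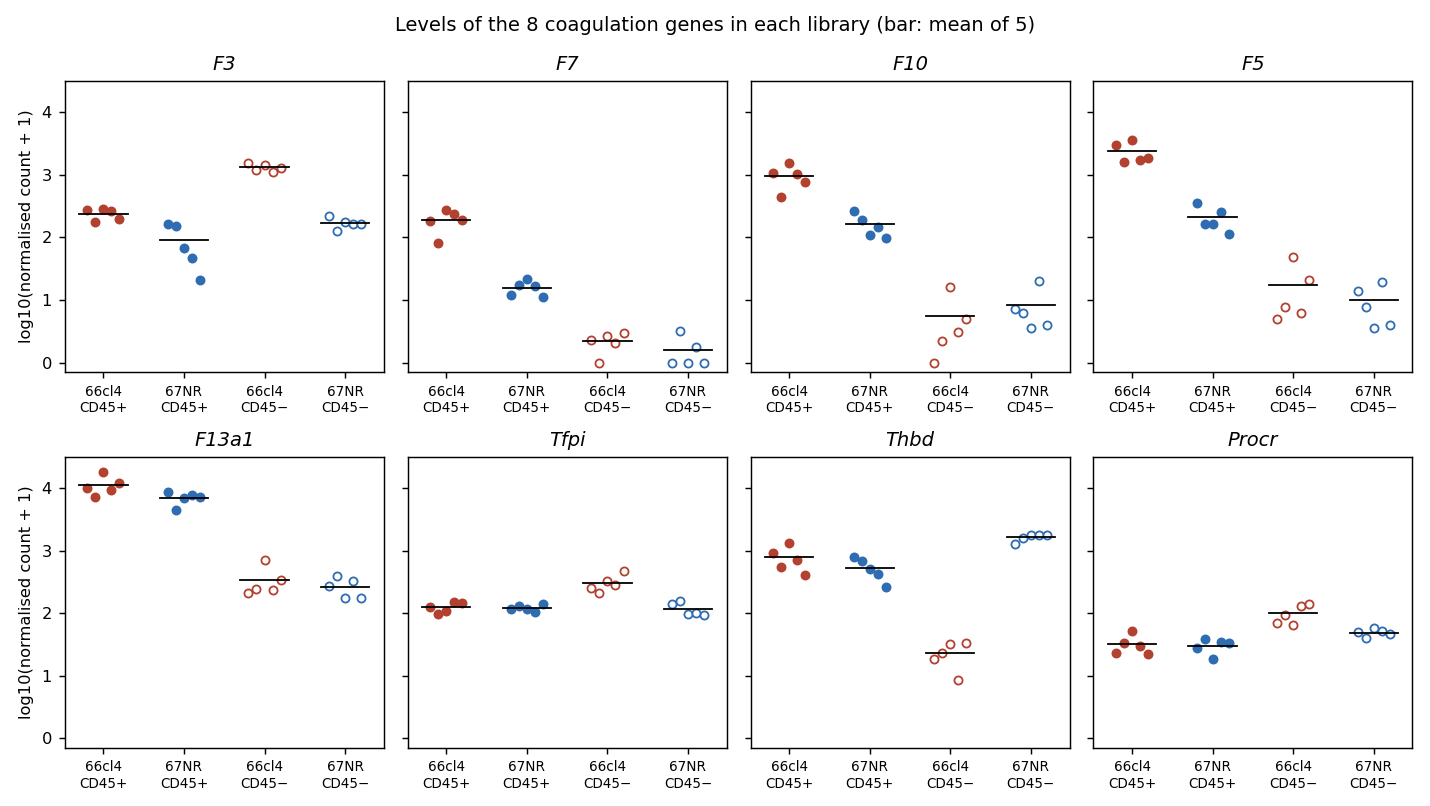
Levels of the 8 genes as log10(normalised count + 1), 1 point per library, filled for CD45+ and open for CD45− cells, red for 66cl4 and blue for 67NR, with the mean of 5 libraries as a bar. F3 was highest in 66cl4 CD45− cells, and Thbd was highest in 67NR CD45− and lowest in 66cl4 CD45− cells. F7, F10, F5 and F13a1 were higher in CD45+ than in CD45− cells of both tumours. The F7 level in 67NR CD45+ cells was low, with a mean of 14.7.

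The comparison of CD45− cells asked how the clotting genes of the non-immune part differ between the tumours. F3 and its inhibitor Tfpi were both higher in 66cl4, Procr was higher as well, and Thbd was far lower. Of the 8 members 5 passed the filter on low counts, and 4 of these 5 were called at an adjusted p below 0.05 together with a log2 fold change beyond 1 in either direction, with 3 higher and 1 lower. In this comparison 32.2% of the 14844 genes tested were called, 13.2% higher and 18.9% lower in 66cl4. Of the 14844 genes, 3831 had all 66cl4 libraries above all of 67NR and 4022 all below, so a lack of overlap was common here. F7, F10 and F5 did not pass the filter and were not tested.

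F3 encodes tissue factor, the trigger of the cascade. In 66cl4 CD45− cells its level was 1561, 1199, 1444, 1106 and 1299.6 normalised counts in animals 3, 4, 5, 6 and 7, and in 67NR CD45− cells it was 221, 124, 176, 162 and 165 in animals 1, 4, 5, 6 and 7. All 5 libraries of 66cl4 lay above all 5 of 67NR, with means of 1322 ± 183 and 169.6 ± 35.0 (SD, n = 5 each). The log2 fold change was 2.99 (SE 0.149, adjusted p = 6.31e-10, edgeR quasi-likelihood test), which is 7.80 times as the ratio of the means. Leaving out any 1 library kept it between 2.89 and 3.12. In bulk libraries such as these, fewer cells of a type and less RNA per cell cannot be told apart.

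Tfpi encodes the inhibitor of the tissue factor complex. The 66cl4 CD45− libraries held 255, 208, 321, 282 and 473 normalised counts, the highest in animal 7, and those of 67NR held 137, 158, 95.7, 101 and 94.1. The groups did not overlap, and the log2 fold change was 1.42 (SE 0.217, adjusted p = 5.69e-05, edgeR). The rise of F3 was larger than that of its inhibitor. The ratio of F3 to Tfpi counts was 6.12, 5.77, 4.49, 3.93 and 2.75 in 66cl4 CD45− cells and 1.62, 0.786, 1.84, 1.60 and 1.75 in 67NR CD45− cells. The groups did not overlap, and the mean log2 ratio was 2.15 ± 0.467 against 0.54 ± 0.505 (SD, n = 5 each). The difference was 1.61 with p = 0.00794 in an exact two-sided permutation test, the smallest p that 5 against 5 libraries can give. Per transcript length the ratio ran from 5.98 to 13.3 in the first group and from 1.71 to 4.02 in the second. In CD45+ cells the count ratio was 1.37 to 2.64 in 66cl4 and ran from 0.143 to 1.42 in 67NR.

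Procr encodes the receptor that presents protein C for activation. Its CD45− level was 69.0, 92.9, 63.3, 129.6 and 142 normalised counts in 66cl4 and 48.3, 39.0, 57.1, 50.8 and 45.0 in 67NR. The lowest 66cl4 library stood just above the highest 67NR library, and the log2 fold change was 1.08 (SE 0.235, adjusted p = 0.00102, edgeR). The call sat close to the fold threshold, since the log2 fold change was 0.98 without 66cl4 animal 6 and 0.93 without 66cl4 animal 7, both below 1.

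Thbd encodes thrombomodulin, the thrombin receptor that starts the protein C pathway and is typical of vessel walls. It had the lowest log2 fold change of the members. In 66cl4 CD45− cells its level was 17.3, 22.4, 31.6, 7.44 and 31.9 normalised counts, and in 67NR CD45− cells it was 1291, 1611, 1797, 1777 and 1796. The log2 fold change was -6.15 (SE 0.243, adjusted p = 1.67e-10, edgeR), with means of 22.1 ± 10.3 and 1654 ± 218 (SD, n = 5 each). Leaving out any 1 library gave -6.30 to -5.93.

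Endothelial cells express Thbd, and most endothelial marker genes were lower in the same comparison. Of 7 such genes 6 were lower in 66cl4 CD45− cells, with a median log2 fold change of -3.33 beside -0.01 over all genes tested, and Cdh5, which encodes the cadherin of endothelial junctions, was not called (-0.65, adjusted p = 0.0942, edgeR). The summed level of the 7 genes was 525 to 1055 in 66cl4 and 1089 to 4375 in 67NR CD45− libraries. Within 67NR the sum was lowest in animal 7 (1089) and highest in animal 4 (4375), where Thbd was 1796 and 1611. The highest 66cl4 sum (1055, animal 7) lay close to the lowest of 67NR, with Thbd at 31.9 in that 66cl4 library. All 5 mast cell genes were also lower in 66cl4 CD45− cells, with a median of -8.13, and their sum in 67NR ran from 439 in animal 1 to 14391 in animal 7. Fibroblast genes were lower for 4 of 7, with sums of 8005 to 13726 in 66cl4 and 14014 to 21780 in 67NR. Dpt, which encodes dermatopontin, made up much of that gap, with means of 35.7 and 4261 normalised counts, while Pdgfra had the higher level in 66cl4, at 4167 to 4645 against 2305 to 3331, and Col1a2 had means of 1195 and 940.3. The part of these cell types in the fall of Thbd was not tested. Tfpi and Procr, which endothelial cells also express, were higher in the same 66cl4 libraries. The part of cell types in their levels was not tested either.

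F13a1 encodes the catalytic chain of factor XIII, which macrophages and megakaryocytes make. Its CD45− level was 207, 241, 704, 233 and 334 normalised counts in 66cl4 and 269, 387, 172, 324 and 174 in 67NR. The groups overlapped, and the log2 fold change was 0.41 (SE 0.372, adjusted p = 0.352, edgeR). Without 66cl4 animal 5, the library with the most macrophage signal, it was -0.015.

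F7, F10 and F5 were almost unread in CD45− cells. F7 had at most 3 counts in any CD45− library, so no fold is given between the tumours. The 66cl4 CD45− libraries held 0 to 14.99 normalised counts of F10, those of 67NR 2.63 to 19.5. The corresponding ranges for F5 were 3.98 to 47.5 and 2.63 to 18.8. In 66cl4 the highest values of both genes came from animal 5, and in 67NR from animal 6.

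The comparison of CD45+ cells is the one that led to F7, F3 and F10, and its values are a description. F7, F10, F5 and F3 were higher in 66cl4, with no overlap between the libraries, while F13a1, Tfpi, Thbd and Procr overlapped. These 4 of 8 members stand beside 15.1% of the 14676 genes tested whose libraries did not overlap in this comparison, and nothing is read from the count, since the same values chose members.

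F7 encodes factor VII, the protease that binds tissue factor. The 66cl4 CD45+ libraries held 179, 80.3, 270.0, 233 and 192 normalised counts and the 67NR CD45+ libraries 10.9, 16.5, 20.3, 15.6 and 10.3. Means were 191 ± 71.3 and 14.7 ± 4.16 (SD, n = 5 each), with a log2 fold change of 3.68 (SE 0.336). The lowest 66cl4 library, animal 4, still held more than the highest 67NR library.

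F10 encodes factor X, the next protease of the cascade and the chromosomal neighbour of F7. Its CD45+ level was 1057, 448, 1531, 1018 and 778 normalised counts in 66cl4 and 268, 190.1, 109, 144 and 96.7 in 67NR (log2 fold change 2.58, SE 0.368). As for F7, animal 5 was highest and animal 4 lowest within 66cl4.

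F5 encodes factor V, the cofactor of activated factor X. It was at 2985, 1630.1, 3641, 1738 and 1889.8 normalised counts in 66cl4 CD45+ cells and at 356, 162, 162, 252 and 114 in 67NR CD45+ cells (log2 fold change 3.51, SE 0.362). Animal 5 was again the highest of the 66cl4 group and animal 4 the lowest.

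F3 was at 271, 179, 283, 266 and 195 normalised counts in 66cl4 CD45+ cells and at 164, 153, 67.1, 45.5 and 19.5 in 67NR CD45+ cells (log2 fold change 1.41, SE 0.484). The 67NR libraries spread more widely than those of any other group, with a coefficient of variation of 72.3% against 13.9 to 20.6% elsewhere. F3 was highest there in animals 1 and 4, which also had the highest sums of fibroblast genes (2853 and 3686 against 862 to 1684) and of neutrophil genes (52320.3 and 27342 against 7185 to 16907). Epithelial and tumour genes stood higher in the 66cl4 CD45+ libraries, with sums of 623 to 945 against 261 to 320.0 normalised counts. Of these genes 2 of 4 tested were higher, with Krt8 at means of 296 and 10.4, while Epcam had means of 17.2 and 33.0. The sum was only 120 to 379 in 67NR CD45− cells. The list therefore marks 67NR tumour cells poorly, and the sums do not compare tumour cell content between the tumours. Cdh1 of the same list was higher in CD45+ than in CD45− cells of both tumours, with CD45+ means of 394 in 66cl4 and 227 in 67NR. The part of fibroblasts, neutrophils and tumour cells in the F3 level was not tested.

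For the other 4 members the libraries of the CD45+ groups overlapped. F13a1 was at 10021, 7131, 17893, 9278 and 12074 normalised counts in 66cl4 and at 8485, 4523, 6927, 7815 and 7109.9 in 67NR (log2 fold change 0.70, SE 0.237). Thbd lay between 409.9 and 1336 in 66cl4 and between 261 and 776 in 67NR (0.55, SE 0.356), with a wide overlap. Tfpi had means of 123 and 121 (log2 fold change 0.05, 95% interval -0.32 to 0.41). For Procr the means were 30.9 and 29.3 (0.09, 95% interval -0.58 to 0.76). The intervals describe the fit and are no test. Whether the Thbd difference in CD45− cells exceeds that in CD45+ cells was not tested.

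**Figure D2:**
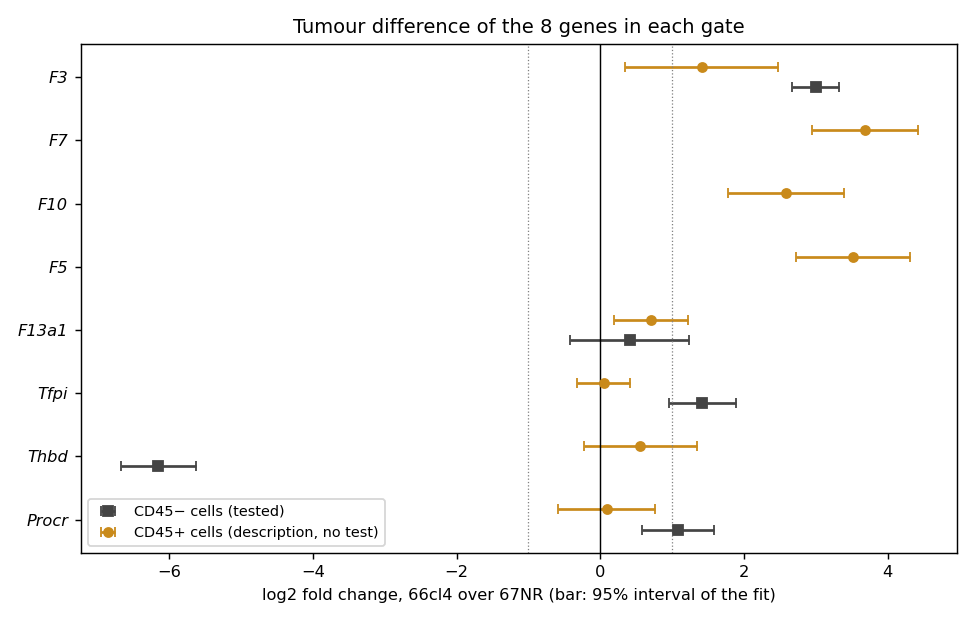
Log2 fold change of 66cl4 over 67NR for each gene in CD45− cells (squares, tested) and CD45+ cells (circles, description only). Bars are 95% intervals of the edgeR fit, and dotted lines lie at -1 and 1. For CD45+ cells the bars describe the fit and are no test, since these values chose members. Thbd lay at -6.15 in CD45− and 0.55 in CD45+ cells, while F3 lay above 1 in both, and F7, F10 and F5 have no CD45− value because they did not pass the filter.

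The make-up of the CD45+ gate also differed between the tumours. Neutrophil genes were higher in 66cl4 for 5 of 7 and summed to 44191 to 125311 against 7185 to 52320.3 normalised counts. Macrophage genes were lower for 2 of 7, with sums of 48422 to 76525 against 87699 to 131055. Of 6 genes typical of large peritoneal macrophages, 4 were tested and 2 were higher, with sums of 1593 to 3349 against 581 to 1003. The 2 without overlap were Alox15 (means 1257.5 and 30.1) and Selp (131 and 24.6). The study had listed both genes from this same comparison, so their difference is no independent observation. Timd4 (means 647 and 467) and Icam2 (356 and 212) overlapped between the tumours. Gata6, which defines these cells, was at means of 2.92 and 0.735 normalised counts. Mast cell genes were lower for 4 of 5. The part of these cell types in the levels of F7, F10 and F5 was not tested. Of the 4 hepatocyte genes, Alb, Apoa1 and Ttr had at most 3 counts in every library. The fourth, Serpina1a, was at 62.7 to 2960 normalised counts in 66cl4 CD45− and 4.21 to 128 in 66cl4 CD45+ cells, against at most 7.90 and 2.06 in 67NR. It was called higher in 66cl4 CD45− cells (log2 fold change 7.91, adjusted p = 4.28e-04, edgeR). With at most 9 counts in a 67NR CD45− library, it passed the filter on low counts only through 66cl4, and its fold is uncertain. In CD45+ cells none of the 3 platelet genes tested was called between the tumours, while in CD45− cells 2 of 3 were lower in 66cl4 (edgeR).

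The comparisons of the gates asked which cells of each tumour carried each gene. Both gates of an animal come from 1 tumour, and the CD45+ libraries are the same ones that chose members, so the members' values between the gates are a description without a test. F10, F5 and, in 66cl4, F7 passed the filter on low counts here through their CD45+ libraries, and F7 did not pass it in 67NR. In the median over all genes tested the log2 fold change of CD45+ over CD45− cells was 0.0031 in 66cl4 and -0.05 in 67NR tumours.

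The factors F7, F10, F5 and F13a1 had their higher levels in the CD45+ gate of both tumours. F7 was at least 65.7-fold higher in CD45+ than in CD45− cells of 66cl4 and at least 5.69-fold higher in 67NR, taking 3 counts per library as the limit of the CD45− side. F10 had a log2 fold change of 7.61 (SE 0.574) in 66cl4 and 4.41 (SE 0.514) in 67NR. For F5 the values were 7.06 (SE 0.555) and 4.51 (SE 0.506) on the log2 scale. F13a1 stood at 5.00 (SE 0.411) and 4.71 (SE 0.274). The direction was the same in 5 of 5 animals of each tumour for all 4 genes.

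The small CD45− levels of these factors can be set beside those of leukocyte genes. Within an animal the CD45− level of F13a1 was 2.07 to 3.94% of the CD45+ level in 66cl4 and 2.45 to 8.56% in 67NR. For the sum of 4 leukocyte genes it was at most 0.9002% and 2.98%, and for the 7 macrophage genes 0.258 to 2.58% and 1.08 to 5.61%. In 66cl4 F5 and F10 lay at 0.133 to 1.303% and 0 to 0.979%, within the range of the macrophage genes or below it. In 67NR they lay at 1.63 to 7.45% and 2.29 to 13.6%, the highest in animal 6 for both.

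F3, Tfpi and Procr had their higher levels in CD45− cells of 66cl4 tumours. F3 had a log2 fold change of -2.50 (SE 0.151), with the CD45+ level at 14.9 to 24.1% of the CD45− level within an animal. The same share was 9.77 to 15.6% for the summed epithelial and tumour genes and 1.67 to 10.1% for the fibroblast genes. Within the epithelial and tumour list Cdh1 and Epcam went the other way, with 66cl4 means of 394 and 17.2 in CD45+ against 20.8 and 12.1 in CD45− cells. Krt8 and Krt18 had means of 296 and 58.4 in CD45+ against 5353 and 1149 in CD45− cells of 66cl4. The log2 fold change of CD45+ over CD45− cells was -1.34 (SE 0.215) for Tfpi and -1.70 (SE 0.302) for Procr, below 0 in 5 of 5 animals each. In 67NR tumours the CD45+ level of F3 was below the CD45− level in 4 of 5 animals, with a log2 fold change of -0.92 (SE 0.472), and without the CD45+ library of 67NR animal 1 or 4 the value was -1.24 or -1.22. Tfpi was at 0.04 (95% interval -0.35 to 0.43). Procr was at -0.71 (SE 0.234), below 0 in 5 of 5 animals.

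The gate with more Thbd was CD45+ in 66cl4 and CD45− in 67NR. In 66cl4 its CD45+ level exceeded the CD45− level by 12.8 to 94.5 times within an animal, in 5 of 5 animals, with a log2 fold change of 5.07 (SE 0.403). In 67NR the CD45+ level was 14.6 to 60.1% of the CD45− level, again in 5 of 5 animals, with a log2 fold change of -1.64 (SE 0.259). The libraries of the gates did not overlap in either tumour, which was common between the gates. In 66cl4 all CD45+ libraries lay above all CD45− libraries for 4689 and below for 4476 of 14916 genes tested. In 67NR these counts were 4140 and 4220 of 15063 genes. Endothelial genes did not move as 1 group between the gates of 66cl4. Of 7 genes 4 were tested, Pecam1 and Kdr were higher in CD45+ cells, Cdh5 and Emcn were lower, and the median log2 fold change was -0.16. The CD45+ sum of the 7 genes was 101 to 240% of the CD45− sum in 66cl4, with Pecam1 at a mean of 948 against 76.0 and Cdh5 at 112 against 557 normalised counts. In 67NR 5 of 7 were lower in CD45+ cells, with a median of -2.95. The part of endothelial cells in the Thbd values was not tested. The difference of these log2 fold changes was itself not tested.

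**Figure D3:**
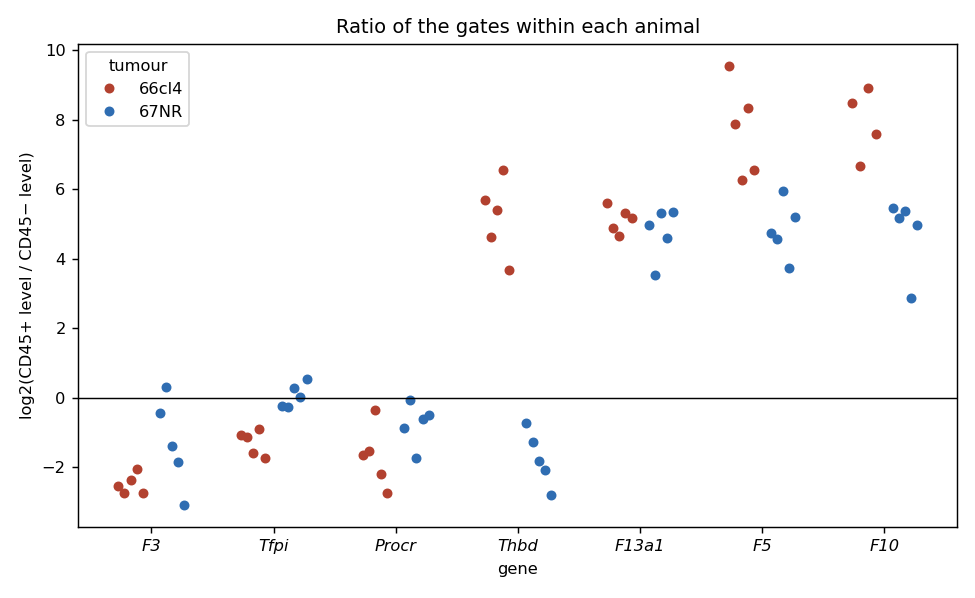
Log2 ratio of the CD45+ to the CD45− level within each animal for 7 of the genes, red for 66cl4 and blue for 67NR, 1 point per animal. Points above 0 were higher in CD45+ cells, and Thbd lay above 0 in every 66cl4 animal and below 0 in every 67NR animal. F7 is left out because of its CD45− counts of 0, and F10 lacks 66cl4 animal 3 for the same reason.

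The order of the 4 groups was given by the means, and neighbours were compared by whether their libraries overlapped. For F3 the order was 66cl4 CD45−, 66cl4 CD45+, 67NR CD45− and 67NR CD45+, and only the first step was free of overlap. For F7, F10 and F5 the CD45+ groups came first, 66cl4 before 67NR, without overlap down to the CD45− groups, which overlapped each other. F13a1 had the same order, but its CD45+ groups overlapped. For Tfpi only 66cl4 CD45− stood apart, and the other 3 groups overlapped. The Thbd order was 67NR CD45−, 66cl4 CD45+, 67NR CD45+ and 66cl4 CD45−, and only the last group stood apart, since the lowest 67NR CD45− library (1291) lay below the highest 66cl4 CD45+ library (1336). Procr was highest in 66cl4 CD45−, then 67NR CD45−, with the last 3 groups overlapping in turn.

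Levels of different genes can be compared only per transcript length, here as TPM, an abundance corrected for transcript length and library depth with reference lengths. In 66cl4 CD45+ cells F13a1 led with a mean of 192 ± 67.6 TPM, followed by F10 at 43.6 ± 16.5, F5 at 21.3 ± 7.73, Thbd at 13.8 ± 5.96, F3 at 10.5 ± 1.61 and F7 at 6.70 ± 2.23 (SD, n = 5). In 66cl4 CD45− cells F3 led at 61.1 ± 10.6 TPM, and Tfpi, Procr and F13a1 lay close together at 6.54 ± 2.34, 6.49 ± 2.24 and 6.17 ± 3.95. In 67NR CD45− cells Thbd led at 30.1 ± 4.798 TPM, with F3 at 7.57 ± 1.19. Among the 8 genes, the highest of the CD45− gate was therefore the initiator of clotting in 66cl4 and an anticoagulant receptor in 67NR. In 67NR CD45+ cells F13a1 was at 118 ± 24.5 TPM and the next, Thbd, at 9.28 ± 3.06. With the longest in place of the median transcript length, F10 and F5 were at 33.8 and 28.5 TPM in 66cl4 CD45+ cells, closer to each other but in the same order.

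**Figure D4:**
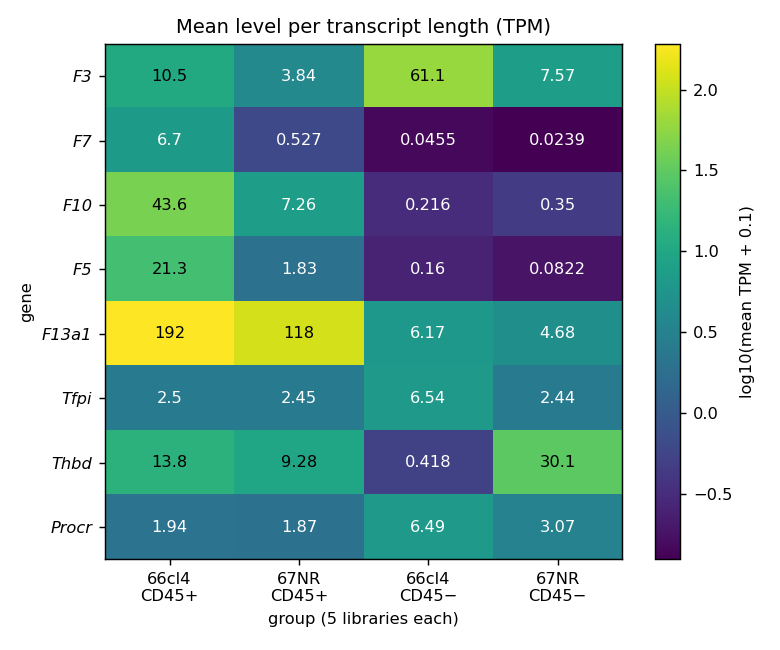
Mean TPM of each gene in each group (5 libraries), with colour as log10(mean TPM + 0.1). F13a1 was the highest gene of both CD45+ groups (192 and 118), F3 of 66cl4 CD45− (61.1) and Thbd of 67NR CD45− cells (30.1).

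Of 35 other genes of coagulation, 16 were tested in CD45− cells, 3 were higher and 3 lower in 66cl4, beside 32.2% of all genes called (13.2% higher and 18.9% lower). Their median log2 fold change was 0.02 beside -0.01 over all genes. Higher were F2rl1, which encodes a protease-activated receptor that the tissue factor complex can cleave (2.75 times as the ratio of means, SE of the log2 fold change 0.445, adjusted p = 0.00850, edgeR), Ggcx, the vitamin K dependent carboxylase that clotting factors need (log2 fold change 1.06, SE 0.104, adjusted p = 6.47e-07), and Serpind1, which encodes the thrombin inhibitor heparin cofactor II. Serpind1 had at most 2 counts in the 67NR CD45− libraries and was at least 8.56-fold higher in 66cl4, with 3 counts per library as the limit. F8, the cofactor factor VIII (-1.52, SE 0.168, adjusted p = 2.27e-06), Tfpi2, a protease inhibitor related to Tfpi (-1.71, SE 0.337, adjusted p = 4.76e-04), and Ano6, the scramblase that exposes phosphatidylserine (-1.22, SE 0.0921, adjusted p = 4.47e-08), were lower. Tfpi and Tfpi2 therefore went in opposite directions.

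In CD45+ cells 16 of the 35 were tested, 1 was higher and 2 were lower in 66cl4, beside 11.8% of all genes tested (5.01% higher and 6.82% lower). F8 was lower (-1.91, SE 0.433, adjusted p = 0.00866, edgeR), as was F2r, a thrombin receptor gene (-1.64, SE 0.380, adjusted p = 0.0115, and 0.0658 without 66cl4 animals 5 and 6). F9, the factor IX gene, was higher (1.20, SE 0.370, adjusted p = 0.0360), with 9.30 to 35.4 normalised counts against 7.80 to 13.2, and leaving out 1 library gave an adjusted p of 0.0107 to 0.0858. Between the gates of 66cl4 tumours 18 were tested and 7 called, beside 44.4% of the 14916 genes tested (23.9% higher and 20.5% lower in CD45+ cells). Vwf (3.05, SE 0.443), F9 (at least 8.14-fold) and F2rl2 (at least 76.1-fold) were higher in CD45+ cells, while F8, F2r, Serpind1 and Ggcx were lower (-2.31 to -1.21). In 67NR tumours 16 were tested and 6 called, beside 39.8% of the 15063 genes tested (20.2% higher and 19.6% lower). Vwf (2.38, SE 0.298) and F2rl2 (5.20, SE 0.572) were higher in CD45+ cells, and F8, Serpine2, Tfpi2 and Ano6 were lower (-3.36 to -1.02, with Ano6 close to the threshold and not called in 6 of 15 alternatives). Vwf encodes the von Willebrand factor of platelets and vessels, F2rl2 a thrombin receptor, and Serpine2 a thrombin inhibitor. The genes named between the gates were chosen after their values were seen. Some of them passed the filter on low counts only through the gate where they were high. In 66cl4 CD45− libraries Vwf, F9 and F2rl2 had at most 6, 1 and 2 counts. In 67NR Vwf and F2rl2 fell to 6 and 2 counts in a CD45− library, and Tfpi2 had at most 6 in a CD45+ library. Nothing is read from the numbers called between the gates.

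The genes with the profile most like each member over the 20 libraries were found by the root mean square difference of centred log2 CPM among 12452 genes. F3 was nearest to Fst (0.52), the follistatin gene, and Mt2 (0.61), a metallothionein gene. F7 was nearest to Olr1 (0.62) and Dpep2 (0.63), F10 to Bend4 (0.49) and Ccl6 (0.54), and F5 to Il1a (0.69) and Gpr84 (0.80). Ccl6 encodes a chemokine, Il1a interleukin-1 alpha and Olr1 a receptor for oxidised lipoproteins. F13a1 was nearest to Marcksl1 (0.43) and Ms4a8a (0.44), and Thbd to Dnhd1 (0.62) and Nectin1 (0.65). For Tfpi the nearest were Pex3 (0.24) and Desi2 (0.25), and for Procr they were Siah1b (0.34) and Ash2l (0.37). The distances are descriptions over libraries that share their size factors.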

How the data were processed

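RNA was sequenced from sorted cells of 10 animals (20 libraries). The authors trimmed reads with fastp, estimated counts with Salmon 1.3.0 and summed them to genes with tximport. The deposited values are these estimated counts, not normalised. GRCh38 (human) is the build that the methods give, but gene identifiers are murine. Groups follow the sample titles.

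Counts were rounded, which changed no value by more than 0.5. Groups of 5 were compared by quasi-likelihood fits (edgeR 4.0.16 under R 4.3.3, TMM scaling, default filter by group with a minimum count of 10, robust, 2 groups per fit), with Benjamini-Hochberg adjustment over all genes tested. Levels use size factors of DESeq2 1.42.0. TPM use median lengths of protein-coding GENCODE transcripts, which 1291 genes lack (2.58% of counts). The fits were tested on simulated data.

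Members and lists were chosen with earlier results of these data known. Members have no test in CD45+ cells or between gates, since CD45+ values chose some of them. Named genes are the members, coagulation genes called between tumours or between gates, the 2 nearest genes by profile and marker genes. Coagulation genes called only between gates were named after their values were seen. Gates of an animal share a tumour, with correlations of their deviations of 0.0247 to 0.142 in 66cl4 and -0.0038 to 0.326 in 67NR. Between tumours libraries share only a number. Each result was recomputed without the filter, with RLE factors, with the Wald test of DESeq2, with all 20 libraries in 1 fit, with a replicate block and without single libraries or 66cl4 animals 5 and 6. Promoters came from RefSeq, which held 7 of the 8 members. Figures used matplotlib 3.10.9.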

Additional observations from a re-analysis of the deposited data

Results flagged for a closer look

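Within a group of 5 libraries, 1 library stood far from the other 4 in 4 of 34 sets of values tested (the totals and the members above 3 counts), and chance gives about 1.7. In 66cl4 CD45− cells animal 5 held 14.99 normalised counts of F10 against 0 to 3.99 in the other animals, and 704 of F13a1 against 207 to 334. In 67NR CD45− cells animal 6 held 19.5 of F10 against 2.63 to 6.14, and the total of animal 7 was 16917100 counts against 21199100 to 22180300 in the others. The level of the leukocyte genes was 576 in 66cl4 animal 5, the highest of its group, and 1097 in 67NR animal 6, where the group ran from 576 to 1437, and their part in these values was not tested.

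Thbd moved in opposite directions between the gates of the tumours. The ratio of the CD45+ to the CD45− mean was 35.3 in 66cl4 and 0.320 in 67NR, with no overlap of the gates in either tumour, and the difference between the tumours was not tested.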

How the results depend on the processing

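The called members F3, Tfpi and Thbd kept their direction and their call in CD45− cells under all 16 alternatives, F3 at 2.89 to 3.12, Tfpi at 1.23 to 1.55 and Thbd at -6.30 to -5.93 (log2 fold change). Procr lost its call in CD45− cells without 66cl4 animal 6 or 7 (range without 1 library 0.93 to 1.22). F13a1, not called there, ran from -0.015 to 0.58 without 1 library, and Tfpi between the gates of 67NR, a value without a test, from -0.040 to 0.15, with -0.034 without 67NR CD45− animal 7. Without 66cl4 animals 5 and 6 all 4 member calls in CD45− cells held, and the F3 to Tfpi difference was 1.66 (exact permutation p = 0.0357). Of the other coagulation genes, those called between the gates of 66cl4 rose from 7 to 12 with DESeq2 and 14 with no filter, which tests 32 in place of 18 genes. Those called in CD45+ cells fell from 3 to 1 without 66cl4 animals 5 and 6, with F2r and F9 lost (adjusted p = 0.0658 and 0.130, edgeR). With the replicate block this count was also 1, with F8 and F9 lost (adjusted p = 0.0648 and 0.180, edgeR). F9 kept its call in 5 of 16 alternatives. In CD45− cells F2rl1 was lost with all 20 libraries in the fit (adjusted p = 0.0545, edgeR) and Ggcx with the block (log2 fold change 0.997). The block changed no member's call in CD45− cells. Between tumours the block joins different mice that share only a number, so its effects on these calls reflect an arbitrary pairing. Low counts limit F7, F10 and F5 in CD45− cells.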
